A study of Mus musculus with 4 samples.

Results

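The Notch receptors Notch1, Notch2 and Notch3, the ligands Jag1, Jag2 and Dll1, and the transcription factor genes Hes1, Hey1, Hey2 and Heyl were followed in cultured palatal mesenchymal cells. These 10 genes, of 18193 with a symbol on the array, were taken by name, and all 18 probe sets that the platform annotation assigns to 1 of them alone were used. The cells came from embryonic day 14 mouse embryos of outbred wild-type stock and were grown as primary cultures. There was 1 culture and 1 array for each of 4 conditions, namely untreated, TGF-beta2 for 120 minutes, and SB431542 or 5Z-7-Oxozeaenol for 60 minutes followed by TGF-beta2 for 120 minutes. SB431542 blocks the kinase of the type I TGF-beta receptor, and 5Z-7-Oxozeaenol (oxozeaenol below) blocks the kinase Tak1. Neither inhibitor was given without TGF-beta2, so the inhibitors' own effects cannot be told apart from their effects on the response to TGF-beta2. The sources used here give neither their doses nor whether embryos were pooled.

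Notch receptors are membrane proteins that are cut when a Jagged or Delta-like ligand on a neighbouring cell binds them. The released intracellular part enters the nucleus, joins the DNA-binding protein Rbpj and turns on genes such as the Hes and Hey repressors. In the mouse palate the pathway is best known through Jag2, whose loss lets the palatal shelves fuse with the tongue and leaves the palate cleft. Hey1 and Jag1 are also known in other cell types as genes that TGF-beta and BMP signals can regulate.

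With 1 array per condition there was no replicate error to set a difference against, and the values below come without tests or p-values. Values are array signals on a linear scale that the authors had brought to a common level. Differences are log2 values of the signal plus 21.7, the 25th percentile of all signals, and this addition understates the differences of dim genes. A probe set was read as measured when its 4 signals averaged 67.9 or more, the middle value over all probe sets, and the brightest measured probe set stood for its gene. Under this rule 9 of the 10 genes and 12 of the 18 probe sets were measured, and Hey2 was not. At least 2-fold apart was the rule for counting a gene, and the share of all 11756 measured genes that met it is given as background.

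Sequence upstream of the gene start is shown for Jag1, the measured gene of the family that differed most between arrays, and for Hey2, the Hey gene found in the promoter table. Both windows run from 250 bases before to 50 bases after the start and come from RefSeq on GRCm38.p6, on the minus strand, at chr2:137116471-137116770 for Jag1 and chr10:30842734-30843033 for Hey2. Capitals mark the core of the Rbpj site, TGGGAA, and a short Smad box, GTCTG, on either strand.
Jag1: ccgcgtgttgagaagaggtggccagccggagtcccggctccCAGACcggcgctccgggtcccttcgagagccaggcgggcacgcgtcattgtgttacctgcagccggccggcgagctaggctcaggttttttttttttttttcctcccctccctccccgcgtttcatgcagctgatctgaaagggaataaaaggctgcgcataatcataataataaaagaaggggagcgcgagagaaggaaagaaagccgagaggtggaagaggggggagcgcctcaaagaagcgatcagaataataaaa
Hey2: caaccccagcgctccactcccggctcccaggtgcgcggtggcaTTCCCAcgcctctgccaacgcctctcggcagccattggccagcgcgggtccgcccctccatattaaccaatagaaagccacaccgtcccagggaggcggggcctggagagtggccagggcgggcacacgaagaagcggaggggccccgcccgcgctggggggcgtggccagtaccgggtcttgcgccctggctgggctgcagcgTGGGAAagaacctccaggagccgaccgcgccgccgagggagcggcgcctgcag
The Jag1 window held 1 Smad box, read on the opposite strand 209 bases before the start, and no Rbpj core. The Hey2 window held 2 Rbpj cores, 207 and 3 bases before the start, and no Smad box. Across all 32851 promoter windows of the same length, 25.6% held an Rbpj core and 49.6% a Smad box, so a match to letters this short is frequent and describes the window only. Promoter windows were found for 7 of the 10 genes, in 8 windows since Dll1 has 2 starts. Hes1, Hey1 and Heyl had no window, so Hey2 is the only Hes or Hey gene among the 8 windows. Of these 8, 1 held the Rbpj core and 4 the Smad box. The AP-1 motif TGANTCA lay in 1 of them, the upstream window of Dll1, and in 7.81% of all windows.

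Jag1, which encodes a membrane-bound ligand of Notch, was higher with TGF-beta2 than untreated in its brightest probe set. That probe set was lower on both inhibitor arrays than with TGF-beta2 alone. Its signal was 3056 in the untreated culture, 7117 with TGF-beta2, 1803 on the SB431542 array and 3116 on the oxozeaenol array. The TGF-beta2 array stood highest, the SB431542 array lay below the untreated one, and the oxozeaenol array lay close to untreated. The log2 difference was 1.21 with TGF-beta2 over untreated, or 2.32-fold, which ranked Jag1 52nd from the top of 11756 genes. Against TGF-beta2 alone it was 3.91-fold lower with SB431542, the 19th lowest of all genes, and 2.28-fold lower with oxozeaenol, the 187th lowest. All these comparisons share the TGF-beta2 array, so a deviating reading on it would enter each of them.

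Jag1 had 3 measured probe sets, and they did not read alike. The middle one gave 240 untreated, 660 with TGF-beta2, 257 with SB431542 and 493 with oxozeaenol. It was again highest with TGF-beta2, 2.6-fold over untreated, and 2.45-fold lower with SB431542. With oxozeaenol it was 1.32-fold lower than with TGF-beta2 alone, within 2-fold, and 1.97-fold above untreated. The dimmest probe set, between 64.5 and 104 and thus near the filter level, varied by 1.46-fold and was highest with oxozeaenol. The higher level with TGF-beta2 and the lower level with SB431542 were therefore read by 2 of 3 probe sets at 2-fold, and the lower level with oxozeaenol by 1. Taking the median over the 3 probe sets gave a log2 difference of −0.40 for oxozeaenol over TGF-beta2, and the 2-fold call was lost. SB431542 over untreated changed sign in the same way, from −0.75 in the brightest probe set to 0.09 for the median.

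**Figure D1:**
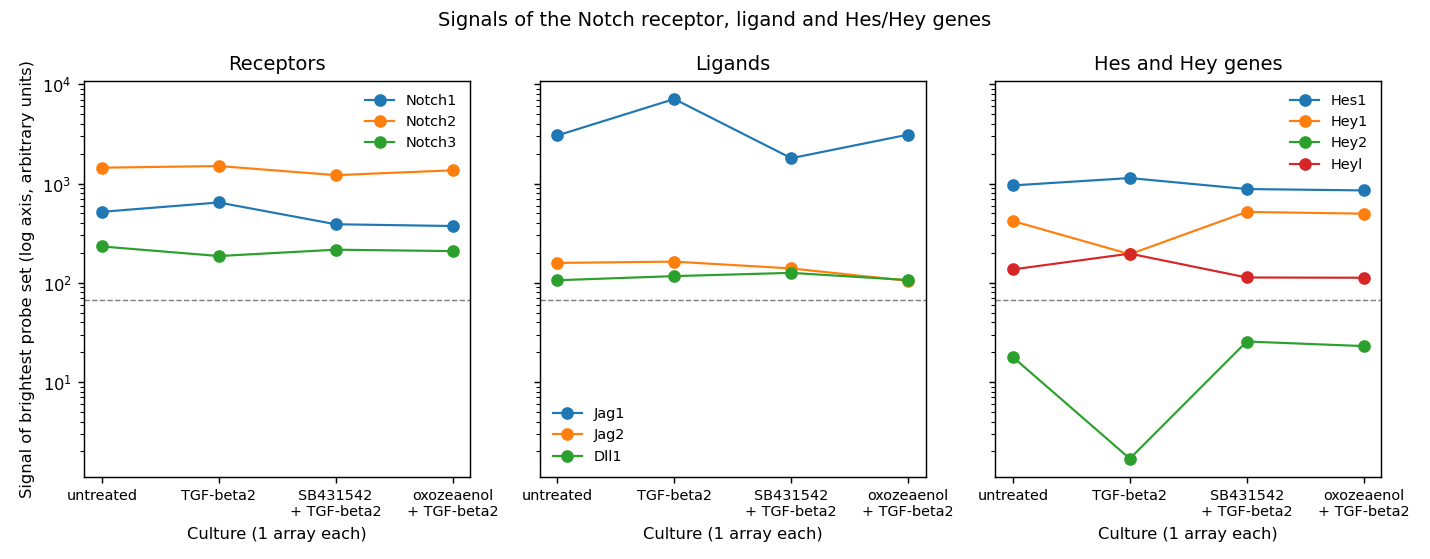
Signal of the brightest probe set of each gene (log axis, arbitrary units) in the 4 cultures, 1 array each. Points are single arrays, lines join arrays of 1 gene, and the dashed line is the filter level of 67.9. Jag1 peaks at 7117 with TGF-beta2, Hey1 dips to 194 there, and Hey2 lies under the filter level on all arrays.

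Jag2 and Dll1, the other ligand genes, differed little. Jag2 read 159 untreated, 164 with TGF-beta2, 140 with SB431542 and 105 with oxozeaenol. It was lowest with oxozeaenol, at 1.47-fold under TGF-beta2 alone, which is within 2-fold. Its second probe set lay under the filter level, between 6.86 and 25.7, and was highest with oxozeaenol and lowest with TGF-beta2, the reverse of the brighter probe set at both ends. Dll1, a Delta-like ligand gene, gave 106, 117, 126 and 107 on the untreated, TGF-beta2, SB431542 and oxozeaenol arrays. These 4 readings span 1.16-fold, and no array stood apart.

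Among the receptor genes, Notch1 was highest with TGF-beta2, as Jag1 was, but its arrays lay closer together. Its brighter probe set read 520 untreated, 645 with TGF-beta2, 389 with SB431542 and 374 with oxozeaenol. TGF-beta2 was 1.23-fold over untreated, and the inhibitor arrays were 1.62-fold and 1.69-fold under TGF-beta2 alone. The second probe set read 182, 263, 81.5 and 162 in the same order. It too was highest with TGF-beta2, and its 2.76-fold lower value with SB431542 passed the 2-fold rule while the brighter one did not. With the median of both probe sets as the gene's value, the log2 difference of SB431542 over TGF-beta2 was −1.08.

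Notch2 and Notch3 were nearly level. Notch2 gave 1446 untreated, 1503 with TGF-beta2, 1217 with SB431542 and 1360 with oxozeaenol, a span of 1.23-fold. Its second probe set, under the filter level, read 72.7 with SB431542 and between 28.0 and 29.5 on the other arrays. Notch3 gave 233, 186, 216 and 209, a span of 1.22-fold with the lowest value on the TGF-beta2 array. The suffix of this Notch3 probe set marks probes that may also match other transcripts. The other Notch3 probe set read 55.7 untreated, 11.4 with TGF-beta2, 36.2 with SB431542 and 66.9 with oxozeaenol. It was also lowest with TGF-beta2, at a level under the filter where differences depend on the pseudocount.

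**Figure D2:**
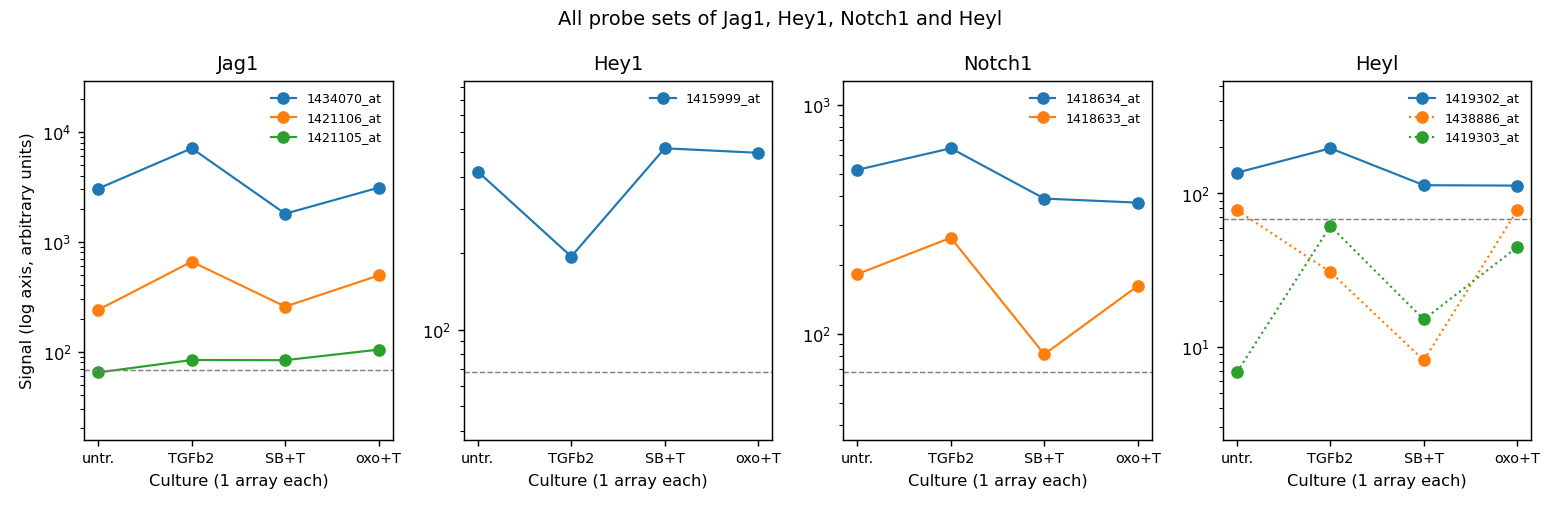
Signals of all probe sets of Jag1, Hey1, Notch1 and Heyl (log axis, arbitrary units) on the arrays of the untreated culture (untr.), TGF-beta2 alone (TGFb2), and TGF-beta2 after SB431542 (SB+T) or oxozeaenol (oxo+T). Solid lines join measured probe sets, dotted lines those under the filter level of 67.9 (dashed). The brighter 2 probe sets of Jag1 and both of Notch1 peak with TGF-beta2, the 1 of Hey1 dips there, and the 3 of Heyl differ in order.

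The Hes and Hey genes, repressors that Notch activates, did not move as a group. Hey1 read 420 untreated, 194 with TGF-beta2, 518 with SB431542 and 498 with oxozeaenol. The TGF-beta2 array stood alone at the bottom, and the other 3 lay within 1.22-fold of the untreated reading. On the log2 scale Hey1 was −1.03 with TGF-beta2 over untreated, the 45th lowest of all genes. Over TGF-beta2 alone it was 1.32 with SB431542, the 29th highest, and 1.27 with oxozeaenol, the 132nd highest. The first of these values sits at the edge of the 2-fold rule, at −0.89 with the pseudocount at the median and −0.999 under quantile normalization. Hey1 has 1 probe set, so no second reading was at hand. Each of its differences above uses the same reading of 194 on the TGF-beta2 array, and a deviating value there would enter all of them.

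Hey2, which acts with Hey1 in blood vessels and heart, was not measured. Its single probe set read 17.9 untreated, 1.69 with TGF-beta2, 25.6 with SB431542 and 23.0 with oxozeaenol. The TGF-beta2 array was lowest here as well, but all 4 signals lie near or under the pseudocount and no fold is drawn from them.

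Hes1, a widely used readout gene of Notch, gave 959 untreated, 1137 with TGF-beta2, 881 with SB431542 and 854 with oxozeaenol. TGF-beta2 was 1.18-fold over untreated, and the inhibitor arrays were 1.28-fold and 1.32-fold under TGF-beta2 alone, all within 2-fold. Heyl, a Hey family member found in smooth muscle cells, gave 137, 197, 113 and 113 in the same order. It was highest with TGF-beta2, 1.38-fold over untreated, and about 1.62-fold lower with SB431542 and 1.63-fold lower with oxozeaenol. The other 2 Heyl probe sets lay under the filter level and differed from it and from each other in order. One was highest with TGF-beta2 at 61.3 against 6.84 untreated, and the other lowest with SB431542 at 8.2 against 77.9 on both the untreated and the oxozeaenol array.

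Counted over the 9 measured genes, 2 were at least 2-fold apart between TGF-beta2 and untreated, against 1.16% of all genes, with Jag1 higher and Hey1 lower. The same genes made up the 2 of 9 with SB431542 over TGF-beta2 (1.96% of all genes) and the 2 of 9 with oxozeaenol over TGF-beta2 (4.24%), there with Jag1 lower and Hey1 higher. These counts share the TGF-beta2 array and are not independent of each other. Between the inhibitors, 0 of 9 were 2-fold apart (background 3.02%). Over untreated the count was 0 of 9 both with SB431542 (background 0.953%) and with oxozeaenol (3.22%). The genes were named for study with earlier results of these arrays known, and Hey1 was among the genes those results showed. Each single gene is 11.1% of the 9.

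The median log2 difference of the 9 genes was 0.12 with TGF-beta2 over untreated, where the median of all genes was −0.03. It was −0.30 with SB431542 over TGF-beta2 and −0.40 with oxozeaenol over TGF-beta2, where the medians of all genes were 0.03 and 0.05. With arrays centred on their median, the oxozeaenol values became −0.48 for the 9 genes, the value of Hes1, and −0.02 for all genes. Of the 9, 6 had their highest signal on the TGF-beta2 array, namely Notch1, Notch2, Jag1, Jag2, Hes1 and Heyl, as did 19.7% of all genes. For Notch2 and Jag2 that array exceeded the untreated one by 1.04-fold and 1.03-fold. Hey1 and Notch3 were the 2 with their lowest signal there, as did 30.8% of all genes.

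**Figure D3:**
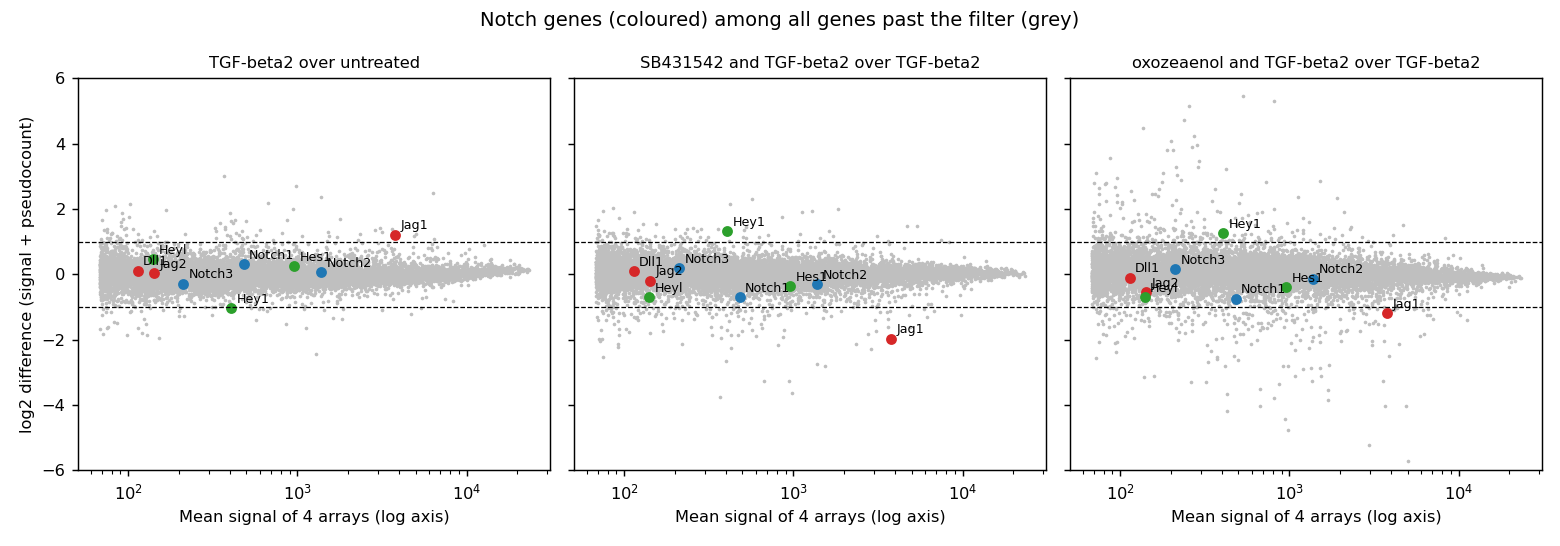
The log2 difference (signal plus pseudocount) of each measured gene against its mean signal over the 4 arrays (log axis), for TGF-beta2 over untreated and for the 2 inhibitor arrays over TGF-beta2 alone. Grey points are the 11756 measured genes, blue points receptors, red points ligands, green points Hes and Hey genes, and dashed lines mark 2-fold. Jag1 and Hey1 lie outside the lines in all 3 panels and on opposite sides.

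The inhibitor arrays were also set against each other. Jag1 was 1.72-fold higher with oxozeaenol than with SB431542 in its brightest probe set and 1.85-fold in the next, both within 2-fold. Hey1, at 498 and 518, differed by 1.04-fold. Hes1 and Heyl differed by 1.03-fold and 1.01-fold, and the brighter Notch1 probe set by 1.04-fold, while the second read 1.78-fold higher with oxozeaenol.

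The rest of the pathway was read from a list of 45 further genes, of which 32 were measured. With TGF-beta2 over untreated, 0 of 32 were at least 2-fold apart (1.16% of all genes), and the median log2 difference of the 32 was −0.07. The largest in size was Fbxw7, which marks the Notch intracellular part for destruction, at 0.67. With SB431542 over TGF-beta2, 1 of 32 was lower and 0 higher (1.96% of all genes met the rule). With oxozeaenol over TGF-beta2, 0 of 32 met the rule (4.24% of all genes). Between the inhibitors, 1 was higher and 1 lower with oxozeaenol (3.02% of all genes). Over untreated, 0 met it with SB431542 (0.953% of all genes) and 1 was lower with oxozeaenol (3.22%). Across all 4 arrays, 2 of the 32 spanned at least 2-fold, or 6.25%, and 7.09% of all genes did.

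These were Rbpj and Nrarp, the latter measured only through its oxozeaenol reading. Rbpj, the DNA-binding partner of the Notch intracellular part, read 2634 untreated, 2344 with TGF-beta2, 3037 with SB431542 and 1287 with oxozeaenol. The oxozeaenol array was the low one, 2.03-fold under untreated and 2.34-fold under SB431542. A second probe set read 1908, 1805, 1875 and 762 in that order and was likewise low with oxozeaenol, at −1.22 over TGF-beta2 on the log2 scale, where the brightest gave −0.85. The third, between 272 and 372, was lowest with oxozeaenol too, within 2-fold.

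Nrarp is a Notch target whose protein dampens the pathway. Its brighter probe set, near the filter level, read 64.7 untreated, 98.6 with TGF-beta2, 32.8 with SB431542 and 146 with oxozeaenol. SB431542 gave the lowest reading, 2.21-fold under TGF-beta2, and oxozeaenol the highest, 3.08-fold over SB431542. Because only the oxozeaenol reading lifted Nrarp past the filter, its high place there is tied to its being measured. The second probe set, at 14.2, 26.0, 7.65 and 86.4, had the same order but lay under the filter level on average.

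The machinery that cuts, modifies and clears the receptors was within 2-fold across the arrays in all 23 measured genes, a share near that of all genes, of which 7.09% spanned 2-fold. Of 7 measured genes for receptor cleavage, the metalloprotease gene Adam10 read between 7426 and 8381, and the gamma-secretase subunit gene Psenen was 1.41-fold lower with TGF-beta2 than untreated. Ncstn, another gamma-secretase subunit gene, was 1.83-fold higher with SB431542 than untreated. The 4 measured glycosylation genes included Lfng, a Fringe gene whose enzyme alters ligand preference, which read 186 untreated and 135 with oxozeaenol. Among 12 measured genes of endocytosis and turnover, Numb, an inhibitor of Notch, spanned 1.04-fold and Fbxw7 1.96-fold. Of the other 3 measured ligand genes, Dlk1 was 1.46-fold higher with oxozeaenol than with TGF-beta2. Hes6 was the 1 further Hes gene measured, at 1.61-fold higher with oxozeaenol than with TGF-beta2, whereas Hes2, Hes3, Hes5 and Hes7 lay under the filter level. The suffixes of the Dlk1 and Hes6 probe sets mark probes that may also match other transcripts.

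**Figure D4:**
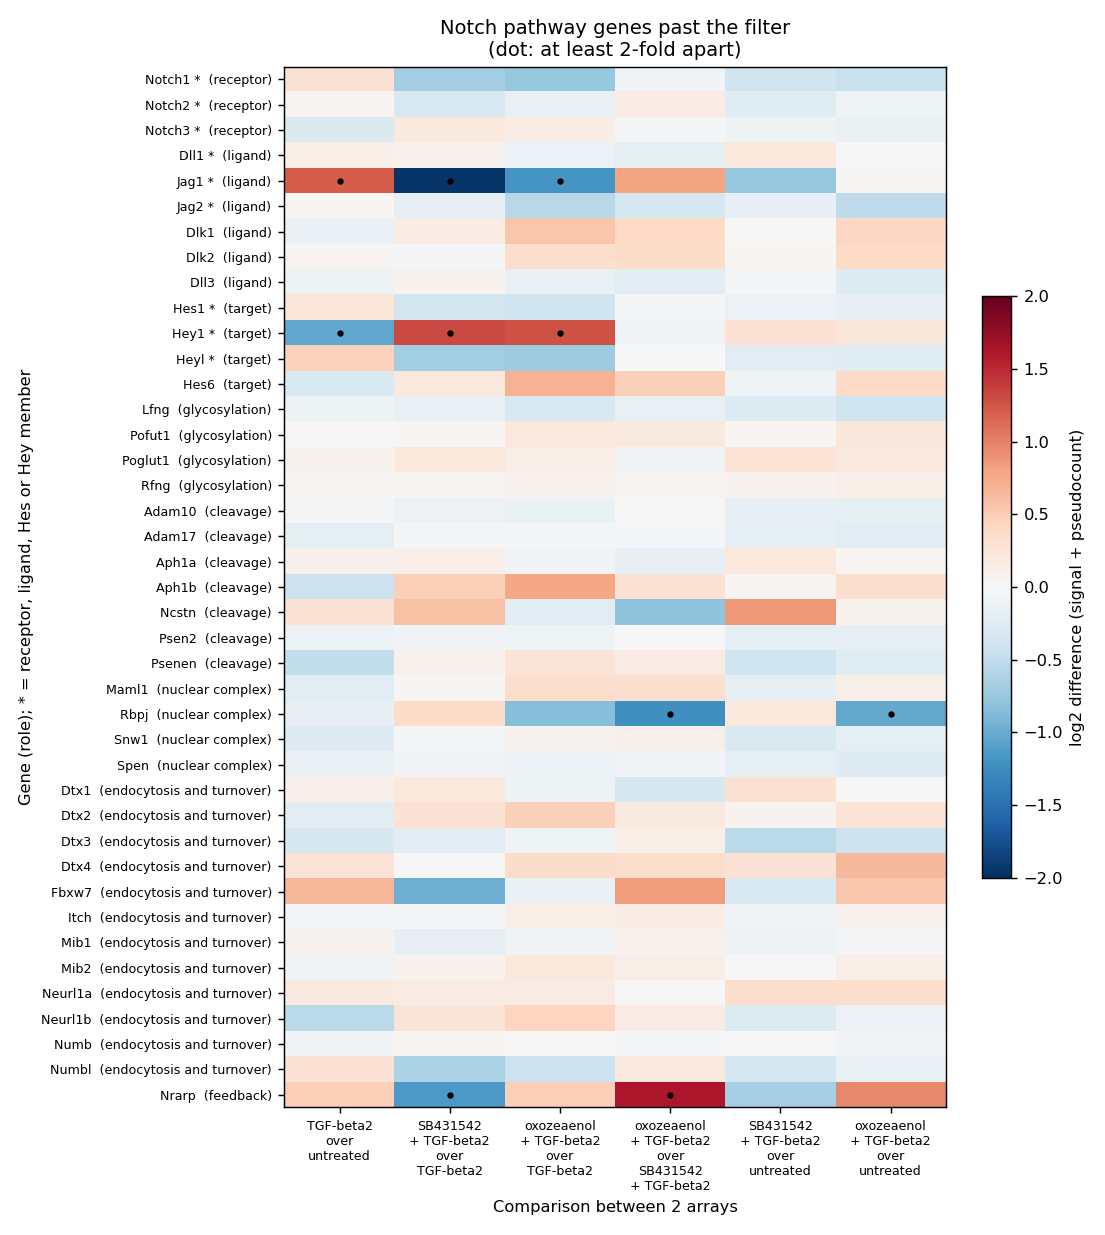
Log2 differences (colour, blue lower and red higher, signal plus pseudocount) of the 9 measured receptor, ligand, Hes and Hey genes (asterisk) and 32 further pathway genes in rows, with the 6 comparisons between 2 arrays in columns. Dots mark differences of at least 2-fold, which fall on Jag1, Hey1, Rbpj and Nrarp.

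The profile over the 4 arrays was compared between genes as the root mean square difference of log2 values centred on each gene's mean, among 833 other genes that spanned at least 2-fold. Nearest to Jag1 were Sema4f, a semaphorin gene, at 0.13, the transcription factor gene Runx1 at 0.14 and Mtcp1 at 0.16. Runx1 read 1846 untreated, 4360 with TGF-beta2, 979 with SB431542 and 2249 with oxozeaenol. Nearest to Hey1 were the integrin gene Itgb8 at 0.06, Gas1, a Hedgehog co-receptor gene, at 0.09 and the DNA repair gene Aplf at 0.10. Gas1 read 4820, 2082, 5887 and 5925 in the same order, with the TGF-beta2 array lowest as for Hey1. The likeness rests on 4 arrays and is a description of these readings.

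Notch genes are active in several cell types that a palatal culture can hold. Of 10 mesenchymal markers 8 were measured, while Osr2 and Tbx22, which mark palatal mesenchyme, lay under the filter level. Their summed signals ran from 44005 to 51390 over the arrays, a sum carried mostly by the collagen genes Col1a1 and Col1a2 and by Prrx1. Of the 8, 1 was at least 2-fold apart between TGF-beta2 and untreated, against 1.16% of all genes. This was Pdgfra, a growth factor receptor gene, at 3643 untreated, 1704 with TGF-beta2, 3835 with SB431542 and 3386 with oxozeaenol, so its low array is the same as that of Hey1. Twist1, a mesenchymal transcription factor gene, read 1147 untreated and 705 with TGF-beta2, within 2-fold. Prrx1, Meox2, Msx1 and Pax9 were 1.07-fold to 1.3-fold lower with TGF-beta2 than untreated. Col1a1 and Col1a2 went the other way, 1.21-fold and 1.11-fold higher. Whether the cell make-up has a part in the Hey1 values was not tested.

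All 7 macrophage markers were measured, with sums from 34658 to 39206. Of these, 0 of 7 were at least 2-fold apart in any comparison, against 7.09% of all genes. Of 10 endothelial markers 1 was measured, Kdr, between 158 and 240, and the defining genes Pecam1, Cdh5 and Tie1 read at most 45.8. Of 8 mural markers 6 were measured, with sums from 24004 to 26094 that rest mostly on Acta2. Among these 6, Des and Cspg4 were lower with oxozeaenol than with TGF-beta2 alone, by 2.85-fold and 2.75-fold. In this comparison 4.24% of all genes were at least 2-fold apart. Myh11, Cnn1 and Rgs5 were 1.04-fold to 1.19-fold higher, and Acta2 was 1.04-fold lower. Of 9 epithelial markers 7 were measured, whose sum was 5595 with oxozeaenol and 1834 to 1902 on the other arrays. That sum was carried by the keratin genes Krt14, at 2218 with oxozeaenol against 141 to 295 elsewhere, and Krt5, at 1383 against 195 to 258. These 2 of the 7 met the 2-fold rule over TGF-beta2, against 4.24% of all genes. The suffixes of the Krt14 and Epcam probe sets mark probes that may also match other transcripts. Cdh1 read 463 with oxozeaenol, 1.93-fold over TGF-beta2 and 2.28-fold over SB431542. Krt8 and Krt18 were also highest with oxozeaenol, within 2-fold. Epcam read 366 with oxozeaenol, 232 with TGF-beta2 and 369 untreated, and Grhl2 was highest with SB431542. The oxozeaenol array is also the one on which Rbpj was lowest. Nrarp was highest there, but it passed the filter only through that reading. The part of these cell types in the values on the oxozeaenol array was not tested. In bulk RNA, fewer cells of a type and less RNA per cell cannot be told apart.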

How the data were processed

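Per the labels' protocols, each culture gave 500 ng of RNA for amplification with biotin label, read on 1 Affymetrix array. The submitters' processing notes name GCOS, and the sources used here give no version or settings. The authors deposited linear intensities for 45101 probe sets, and their mean after setting aside the lowest and highest 2% was 500.0 on every array, so the authors had scaled them. This hides any change of total RNA per cell. Signals of different probe sets are not comparable as levels.

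With Python 3.11.15, numpy 2.4.6 and pandas 2.3.3, 64 control probe sets were removed, 34945 probe sets with 1 gene symbol were used (932 had several, 9160 none), and intensities were converted to log2(value + 21.7). The filter kept 20077 of them for 11756 genes. The steps were tested on simulated data. All 10 symbols matched RefSeq gene IDs. Members and lists were chosen with earlier results of these data known. Named genes were all 10, further pathway genes at least 2-fold apart or among the brightest of their role, and the 3 nearest profiles per gene spanning 2-fold. Genes outside this rule are Ncstn, Lfng, Fbxw7 and the single markers, chosen after their values were seen. Alternatives were the pseudocount, the filter, quantile normalization, median centring and the median over probe sets. With 1 array per group, the number of arrays limits the precision.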

Additional observations from a re-analysis of the deposited data

How the results depend on the processing

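Each comparison was recomputed under 7 alternatives. Of 348 recomputed differences of single genes, 344 kept their side of the 2-fold rule, 3 lost it, 1 gained it and 0 of those past it changed sign. The changes were Hey1 with TGF-beta2 over untreated (−0.89 with the pseudocount at the median, −0.999 under quantile normalization), Jag1 with oxozeaenol over TGF-beta2 (−0.40 for the median over probe sets) and Notch1 with SB431542 over TGF-beta2 (−1.08 for that median). Sign differed in 5 cases, all within 2-fold. The count of 2 of 9 Notch genes with TGF-beta2 over untreated became 1 with the pseudocount at the median, under quantile normalization and with the filter at the 75th percentile. That filter, at 416, left 4 genes without Hey1, and the count was 1 for each inhibitor over TGF-beta2 as well. With the median over probe sets it was 1 for oxozeaenol over TGF-beta2, where Jag1 was lost, and 3 for SB431542 over TGF-beta2, where Notch1 was gained. With no filter the latter was 3 of 10, with the dim Hey2 added.

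Counts over all genes moved most with the filter. In the order TGF-beta2 over untreated, SB431542 over TGF-beta2, oxozeaenol over TGF-beta2, oxozeaenol over SB431542, SB431542 over untreated and oxozeaenol over untreated, the reported counts were 136, 230, 498, 355, 112 and 378. They were 634, 882, 1114, 1018, 726 and 929 with no filter and 55, 93, 228, 145, 16 and 160 with the stricter one, as dim genes entered or left. With the pseudocount at the median, the counts for TGF-beta2 over untreated, SB431542 over TGF-beta2 and SB431542 over untreated were 76, 122 and 44. No paired analysis was possible because each group holds 1 array. With 1 array per group no array could be left out, and signal near the filter level limits what Hey2, Dll1, Jag2, Heyl and Nrarp can show.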
